A study of Mus musculus with 43 samples.

Results

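Trem2, Tyrobp, Itgax, Clec7a, Cst7, Lpl, Spp1, Gpnmb, Cd9 and Cd63 are genes of the programme that microglia switch on around damaged tissue, known as disease-associated microglia. They were taken by name from that programme, and all 10 had a row in each of the 43 count files, which list 55416 genes. The libraries came from the cerebral cortex of 3-month-old mice. Microglia, oligodendrocyte precursor cells (OPCs), oligodendrocytes and astrocytes were captured by immunopanning, in which a cell suspension is passed over plates coated with antibodies. The study asked whether mice without mature T and B cells, which carry a homozygous loss of the recombinase gene Rag2 (Rag2-/-, line B6.Cg-Rag2tm1.1Cgn/J crossed with C57BL/6J), have altered glia. Each Rag2-/- mouse was matched with a lymphocyte-competent littermate control, making 6 littermate pairs. Controls of pairs 1, 2, 3 and 5 were Rag2+/-, and those of pairs 4 and 6 were Rag2+/+. Microglia (anti-CD45) and astrocytes (anti-HepaCAM) each gave 6 control and 6 Rag2-/- libraries. OPCs (anti-PDGFRA) gave 6 and 5, and oligodendrocytes (GalC hybridoma) gave 4 and 4. The loss of Rag2 is in every cell of the animal, the CD45 plate also binds macrophages from outside the brain tissue, and each cell type was sequenced on its own lane, which means that a lane effect and a cell type effect cannot be told apart.

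TREM2 is a lipid-sensing receptor on the surface of microglia that has no signalling tail of its own and passes its signal through the adaptor TYROBP (DAP12). In models of amyloid deposition, demyelination and ageing, microglia around the lesion raise Tyrobp and Apoe early, and then, when TREM2 is present, raise Itgax, Clec7a, Cst7, Lpl, Spp1 and related genes, while genes of resting microglia such as P2ry12 and Tmem119 fall. The resting adult cortex is known for little of the later programme.

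Levels are in CPM, a gene's counts scaled to 1000000 gene-assigned counts of its library. The 43 libraries held 6499417 to 23118497 counts assigned to genes. Each set carried its own cell markers, beside some of other sets. Astrocyte markers summed to 16577 to 21666 CPM in astrocyte libraries and to 2957 to 8071 in OPC libraries. Oligodendrocyte markers summed to 15785 to 22540 CPM in oligodendrocyte libraries and to 3402 to 5380 in astrocyte libraries. The part of other populations in a member's level was not tested. The summed level of 15 microglia markers was 17203 to 20859 CPM in microglia libraries. It was 409 to 2075 in OPC, 310 to 1595 in oligodendrocyte and 122 to 514 in astrocyte libraries. Within these last 3 sets, together called macroglial libraries here, both mice of littermate pair 3 had the highest microglia marker sums. In bulk libraries, fewer cells of a type and less RNA per cell cannot be told apart.

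The sequence just before and after the transcription start is shown for the receptor gene Trem2, whose level was high in every microglia library, and for Spp1 and Gpnmb, whose mean levels outside microglia lay above the range of the microglia markers. Each stretch covers 250 bases before to 50 bases after the start of the canonical transcript, 5′ to 3′ on the gene's strand, read from the GRCm39 genome at GENCODE starts. Capitals mark matches, on either strand, to GAGGAA (the core bound by the myeloid factor PU.1), CATGTG (the core bound by MITF and TFE factors, an E-box variant) or TGANTCA (the AP-1 element).
Trem2 (chr17:48653179-48653478, + strand): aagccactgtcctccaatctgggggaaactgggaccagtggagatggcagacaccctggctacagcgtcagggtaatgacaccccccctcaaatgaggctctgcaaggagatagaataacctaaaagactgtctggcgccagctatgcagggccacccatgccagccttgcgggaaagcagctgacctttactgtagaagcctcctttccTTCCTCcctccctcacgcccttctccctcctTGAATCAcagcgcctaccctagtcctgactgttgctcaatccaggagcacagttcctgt
Spp1 (chr5:104581915-104582214, + strand): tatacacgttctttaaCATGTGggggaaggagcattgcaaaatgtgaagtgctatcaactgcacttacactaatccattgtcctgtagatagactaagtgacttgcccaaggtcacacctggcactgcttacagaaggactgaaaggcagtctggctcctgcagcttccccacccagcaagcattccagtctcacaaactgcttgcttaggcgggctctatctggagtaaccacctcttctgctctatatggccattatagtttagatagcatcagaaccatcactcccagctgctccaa
Gpnmb (chr6:49013176-49013475, + strand): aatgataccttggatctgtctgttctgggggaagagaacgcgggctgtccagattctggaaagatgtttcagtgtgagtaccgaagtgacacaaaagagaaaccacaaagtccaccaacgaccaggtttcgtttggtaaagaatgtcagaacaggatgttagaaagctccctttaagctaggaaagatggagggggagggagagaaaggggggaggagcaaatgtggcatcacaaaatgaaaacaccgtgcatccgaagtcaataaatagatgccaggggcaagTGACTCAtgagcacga
Of the 21770 promoters searched in the same way, 27.54% held GAGGAA, 11.96% held CATGTG and 7.143% held TGANTCA. Among the promoters reported here, which leave out that of 1 member, GAGGAA occurred in Trem2, Lpl, Clec7a and Cd63, CATGTG in Cd9 and Spp1, and TGANTCA in Trem2, Itgax and Gpnmb. The palindromic E-box CACGTG, in 7.814% of promoters, was in none of the printed stretches. The searched motifs share no overlapping match in the printed stretches. These matches describe letters in a window and not of binding.

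In microglia, the adaptor Tyrobp and the receptor Trem2 stood above Lpl, Cst7, Clec7a, Itgax, Spp1 and Gpnmb, but Cd9 was high as well. Levels are compared between genes per kilobase of merged exons. Tyrobp led at 1847 ± 243 CPM per kilobase (SD, n = 12), followed by Cd9, a tetraspanin, at 105 ± 8.54, Trem2 at 59.5 ± 7.93 and Cd63, a tetraspanin of late endosomes, at 26.5 ± 3.31. Then came Lpl, which encodes lipoprotein lipase, at 9.43 ± 2.17 and Cst7, which encodes the cathepsin inhibitor cystatin F, at 8.82 ± 3.13. Clec7a, which encodes the β-glucan receptor dectin-1, stood at 5.01 ± 1.62 and Itgax, which encodes the integrin subunit CD11c, at 4.57 ± 1.05. Spp1, which encodes the secreted protein osteopontin, was at 1.00 ± 0.52 and Gpnmb, which encodes a glycoprotein of melanosomes and lysosomes, at 0.17 ± 0.20. The ranges of Lpl and Cst7, and those of Clec7a and Itgax, overlapped, whereas Trem2 (45.0 to 70.8) and Cd63 (22.3 to 31.2) did not. The order of neighbours depends on the length used. The merged exons of Trem2 span 4946 bases but its canonical transcript 1088, and per kilobase of canonical transcript Trem2 (270) stood above Cd9 (175), and Clec7a (18.7) above Cst7 (11.8).

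**Figure D1:**
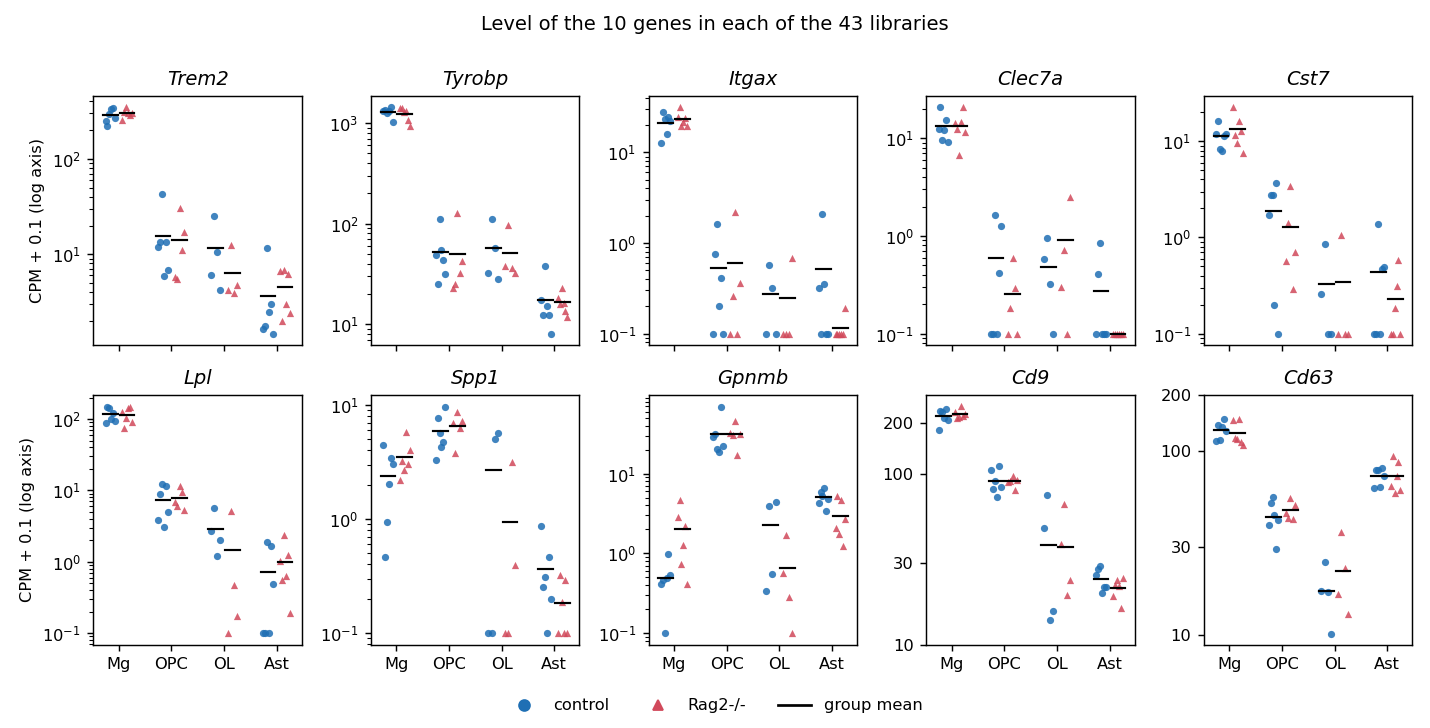
Each panel is 1 gene and each point 1 library: the level in CPM plus 0.1 (log axis) by cell type (Mg, microglia; OPC; OL, oligodendrocytes; Ast, astrocytes), with circles for controls, triangles for Rag2-/- mice and bars for group means. Trem2, Tyrobp, Itgax, Clec7a, Cst7 and Lpl are highest in all 12 microglia libraries, Spp1 and Gpnmb are highest on average in OPCs, and controls and Rag2-/- mice overlap in every panel and cell type.

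Across cell types, 8 of the 10 genes were higher in microglia than in each macroglial population. Against OPCs, 8 genes were higher and 1, Gpnmb, was lower (edgeR quasi-likelihood test, p-values adjusted by the method of Benjamini and Hochberg, threshold 0.05). Against oligodendrocytes 8 were higher and 0 lower, and against astrocytes 9 were higher and 1, again Gpnmb, was lower. These counts stand against a background in which 71.7%, 69.7% and 72% of the 19209 tested genes passed the same threshold, with 31.4%, 33.1% and 33.8% higher in microglia and 40.3%, 36.6% and 38.2% lower. The median log2 difference of the 10 genes was 3.61, 3.52 and 5.65, against -0.19, -0.04 and -0.13 over all tested genes. Log2 differences come from fits with trimmed-mean scaling and so are not ratios of the printed CPM, which count every gene-assigned read: mitochondrially encoded genes took 45.8% to 60.1% of them in oligodendrocyte, 22.4% to 36.7% in OPC, 22.5% to 45.1% in astrocyte and 6.75% to 11.7% in microglia libraries. With library totals alone, the scale of CPM and an option chosen after the data were seen, the all-gene medians became -0.28, 0.93 and 0.17, so differences are to be read relative to them. The share of called genes that were higher in microglia went from 47.5% to 69.6% against oligodendrocytes. The members called higher and lower stayed at the same numbers in all 3 comparisons. DESeq2's size factors moved the all-gene median against OPCs to -0.08.

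The receptor and the adaptor were high in every microglia library and low elsewhere. Trem2 (ENSMUSG00000023992, chr17:48653429-48661175, + strand) ran from 223 to 350 CPM in microglia libraries (median 298). In OPC libraries it ran from 5.37 to 42.7 (median 11.8), in oligodendrocyte libraries from 3.81 to 25.2 (median 5.32) and in astrocyte libraries from 1.37 to 11.5 (median 2.63). All 31 macroglial libraries stood below the lowest microglia library. The log2 difference of Trem2 between microglia and OPCs was 4.43 (SE 0.37, edgeR adjusted p = 1.53e-14), and it was 4.20 against oligodendrocytes and 5.89 against astrocytes. Tyrobp (ENSMUSG00000030579, chr7:30113170-30117010, + strand) ran from 937 to 1443 CPM in microglia libraries (median 1310), 22.8 to 128 in OPCs, 28.1 to 112 in oligodendrocytes and 7.94 to 37.8 in astrocytes. Its log2 differences were 4.79, 3.68 and 5.96 (edgeR adjusted p = 1.91e-19, 1.95e-14 and 1.29e-22). Oligodendrocyte libraries carried more Tyrobp than OPC libraries, by 1.11 on the log2 scale (SE 0.26, edgeR adjusted p = 7.61e-04), with 40.4% of all tested genes called in that comparison. On the CPM scale the means were close, at 53.6 CPM in oligodendrocytes and 51.3 in OPCs, and with library totals alone the call was lost (log2 difference of OPCs from oligodendrocytes -0.09, edgeR adjusted p = 0.784). The all-gene median of that difference was 0.14 under trimmed-mean scaling and 1.19 with library totals, and the share of called genes that were higher in OPCs was 56.2% and 93.1%.

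The surface receptors Itgax and Clec7a were close to absent outside microglia. Itgax (ENSMUSG00000030789, chr7:127728668-127749829, + strand) stood at 12.5 to 31.6 CPM in microglia libraries (81 to 303 counts). It was at 0 counts in 4 of 11 OPC, 5 of 8 oligodendrocyte and 8 of 12 astrocyte libraries, and its highest macroglial value was 2.07 CPM. Clec7a (ENSMUSG00000079293, chr6:129438554-129449742, - strand) stood at 6.59 to 20.8 CPM in microglia libraries and was at 0 counts in 5 of 11, 2 of 8 and 10 of 12 macroglial libraries. At these depths 3 counts, taken as a floor here, correspond to 0.1298 to 0.462 CPM, and a level under a library's floor rests on fewer counts. Log2 differences from OPCs, oligodendrocytes and astrocytes were 5.65, 6.09 and 6.41 for Itgax and 5.39, 3.35 and 6.92 for Clec7a, each past the threshold. Both genes entered this fit through their microglia counts, since within OPCs, oligodendrocytes and astrocytes they were too sparse for the filter on low counts. Their differences among the macroglial populations thus rest on few counts. A single oligodendrocyte library, that of the Rag2-/- mouse of pair 6, held 33 counts of Clec7a (2.42 CPM) and the other 7 held 0 to 9. Clec7a was higher in oligodendrocyte than in OPC libraries by 2.04 on the log2 scale (edgeR adjusted p = 0.0327), and this call rests on that mouse. Without its libraries the log2 difference of OPCs from oligodendrocytes was -0.84 (edgeR adjusted p = 0.395), and with the mouse as a block it was -1.86 (edgeR adjusted p = 0.0917). The call was also lost, at about the same size, without the control or Rag2-/- mouse of pair 2 (edgeR adjusted p = 0.0547 and 0.0674) or the Rag2-/- mouse of pair 4 (edgeR adjusted p = 0.0503). It was lost as well with library totals alone (-0.96, edgeR adjusted p = 0.254) and among control libraries (-0.60, edgeR adjusted p = 0.705).

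The protease inhibitor and the lipase were likewise highest in microglia. Cst7 (ENSMUSG00000068129, chr2:150412284-150420864, + strand) had 7.41 to 22.6 CPM in microglia libraries, 0 to 3.56 in OPCs, 0 to 0.964 in oligodendrocytes and 0 to 1.27 in astrocytes. Lpl (ENSMUSG00000015568, chr8:69284603-69360100, + strand) had 75.5 to 150 CPM in microglia libraries, 2.98 to 12.2 in OPCs, 0 to 5.65 in oligodendrocytes and 0 to 2.24 in astrocytes. The ranges in microglia and in each macroglial population did not overlap for either gene. The log2 differences of Lpl were 4.04, 4.99 and 6.86, and those of Cst7 3.18, 4.90 and 5.41. Lpl was also higher in OPC than in astrocyte libraries, by 2.82 (SE 0.45, edgeR adjusted p = 1.33e-06), in a comparison with 44.2% of all tested genes called. Between OPCs and oligodendrocytes, Cst7, Lpl and Cd9 did not pass in the full fit (1.72, 0.94 and 0.29, edgeR adjusted p = 0.0742, 0.0993 and 0.162). On the CPM scale their means were farther apart, at 1.503, 7.54 and 90.9 CPM in OPCs and 0.234, 2.09 and 37.7 in oligodendrocytes. With library totals alone all 3 passed (2.67, 1.94 and 1.31, edgeR adjusted p = 0.00302, 5.34e-04 and 3.09e-07), so these calls depend on the scaling. Without the pair 3 libraries all 3 were higher in OPCs, by 3.72, 1.58 and 0.63 on the log2 scale (edgeR adjusted p = 0.00416, 0.0136 and 0.00286), so that 6 members in place of 3 were called. With the mouse as a block, Cst7 (2.12, edgeR adjusted p = 0.0334) and Lpl (1.15, edgeR adjusted p = 0.0429) passed as well.

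The tetraspanins were also well counted in macroglia. Cd9 (ENSMUSG00000030342, chr6:125437210-125471778, - strand) ran from 182 to 251 CPM in microglia, 73.2 to 111 in OPCs, 13.8 to 75.0 in oligodendrocytes and 16.2 to 28.7 in astrocytes, in that order of means. The log2 difference between microglia and OPCs was 1.40 (SE 0.15, edgeR adjusted p = 4.66e-11). For Cd63 the population next to microglia was the astrocytes. Cd63 (ENSMUSG00000025351, chr10:128731528-128748709, + strand) ran from 107 to 149 CPM in microglia, 59.3 to 93.1 in astrocytes, 29.2 to 55.9 in OPCs and 10.1 to 36.4 in oligodendrocytes. Cd63 was higher in astrocyte than in OPC libraries by 1.06 (SE 0.12, edgeR adjusted p = 7.64e-10) and higher in astrocyte than in oligodendrocyte libraries by 1.25, where 51.5% of all genes were called. With library totals alone the log2 differences from astrocytes were -0.68 for OPCs and -1.89 for oligodendrocytes, both past the threshold, while the share of called genes that were lower in astrocytes went from 59.1% to 80.1% and from 56.0% to 26.2%. The difference between microglia and astrocytes was 0.50 (SE 0.12, edgeR adjusted p = 2.02e-04). The Cd63 values are uncertain in one respect: 29.03% of the 50-base stretches of its transcript also occur elsewhere in the genome, and the pseudogene Cd63-ps was counted at a similar mean level in each population (124 CPM in microglia, where Cd63 had 127).

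Spp1 and Gpnmb had their highest mean levels in OPC libraries. The 11 OPC libraries held 3.17 to 9.57 CPM of Spp1 (ENSMUSG00000029304, chr5:104582165-104589235, + strand, median 6.16; 39 to 164 counts), the 12 microglia libraries 0.363 to 5.72 (median 2.93), and 8 of 12 astrocyte libraries held a count at all, with at most 0.771 CPM. Oligodendrocyte libraries were split: 4 of 8 held 0 counts and 1 held 0.294 CPM, while the controls of pairs 5 and 6 and the Rag2-/- mouse of pair 5 held 4.88, 5.52 and 3.07 CPM. The OPC and microglia ranges of Spp1 overlapped, and their log2 difference of -0.98 (95% interval -2.21 to 0.25, edgeR adjusted p = 0.148) did not pass the threshold. Of the merged exon bases of Spp1, 12.7% overlap Gm42793 on the same strand, and reads there could be counted for either gene or for neither. Spp1 was higher in OPC than in astrocyte libraries by 4.75 (SE 0.75, edgeR adjusted p = 1.15e-06). For Gpnmb (ENSMUSG00000029816, chr6:49013426-49047863, + strand) the ranges of OPCs and microglia did not overlap: 17.04 to 69.2 CPM in OPCs (177 to 728 counts) against 0 to 4.52 in microglia (0 to 42 counts), a log2 difference of -4.59 (SE 0.54, edgeR adjusted p = 4.56e-10). Astrocytes held 1.15 to 6.48 CPM, more than microglia by 1.99 on the log2 scale (edgeR adjusted p = 7.19e-04). Oligodendrocytes held 0 to 4.26 CPM and were not told apart from microglia (log2 difference -1.16, 95% interval -2.38 to 0.06, edgeR adjusted p = 0.0837). Among control libraries alone, however, microglia had less Gpnmb than oligodendrocytes, with a log2 difference of -3.44 (edgeR adjusted p = 1.28e-04) and means of 0.394 and 2.20 CPM. In Rag2-/- libraries the means stood in the other order, 1.92 CPM in microglia and 0.558 in oligodendrocytes, and that difference was not tested.

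Markers of other cells were read beside these levels. A list of 8 mural and fibroblast genes summed to 98.5 to 437 CPM in OPC libraries, 91.9 to 153 in astrocyte, 17.5 to 54.1 in microglia and 6.22 to 55.01 in oligodendrocyte libraries. In astrocyte libraries Pdgfrb alone had a mean of 88.7 CPM, where the mean sum was 131. All 8 were detected in OPC libraries, with Dcn, Lum, Col1a1 and Col1a2, genes of fibroblasts, at means of 17.3, 4.59, 7.32 and 12.0 CPM. In astrocyte libraries these 4 had means of 0.330, 0.00817, 4.80 and 8.51 CPM. Fibroblasts also carry the PDGFRA that the OPC plate binds. Neutrophil markers, by contrast, summed to at most 1.26 CPM in OPC libraries, with S100a8 at 0 counts in all 11. The part of mural and fibroblast RNA in the OPC level of Spp1 or Gpnmb was not tested.

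How far each gene outside the microglia libraries followed the general microglia signal is seen from its mean level as a percent of its microglia mean. The 15 microglia markers gave a common range of 4.13% to 8.10% in OPC libraries (Tmem119 lowest, Gpr34 highest), 3.06% to 6.33% in oligodendrocyte and 0.874% to 2.23% in astrocyte libraries. In OPC libraries, Trem2 at 5.04% ± 3.99 (SD, n = 11) and Lpl at 6.54% ± 2.85 lay inside that range. Tyrobp (4.07%), Clec7a (2.59%) and Itgax (2.09%) lay below it. Cst7 at 12.3% ± 11.04, Cd63 at 35.9% ± 6.14, Cd9 at 40.9% ± 4.91, Spp1 at 214% ± 72.5 and Gpnmb at 2716% ± 1289 lay above it. The spread of Cst7 reached from 0% to 29.1% and so covered the marker range. In oligodendrocyte libraries the means of 4 genes lay above the range (Cd9, Cd63, Spp1 and Gpnmb). The same 4 did so in astrocyte libraries, where Cd63 stood at 57.5% ± 8.57 and Gpnmb at 337% ± 151. Single oligodendrocyte libraries ran from 0% to 194% for Spp1 and from 0% to 369% for Gpnmb. For Spp1 in astrocytes they ran from 0% to 27.2%. These spreads covered the marker range as well.

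**Figure D2:**
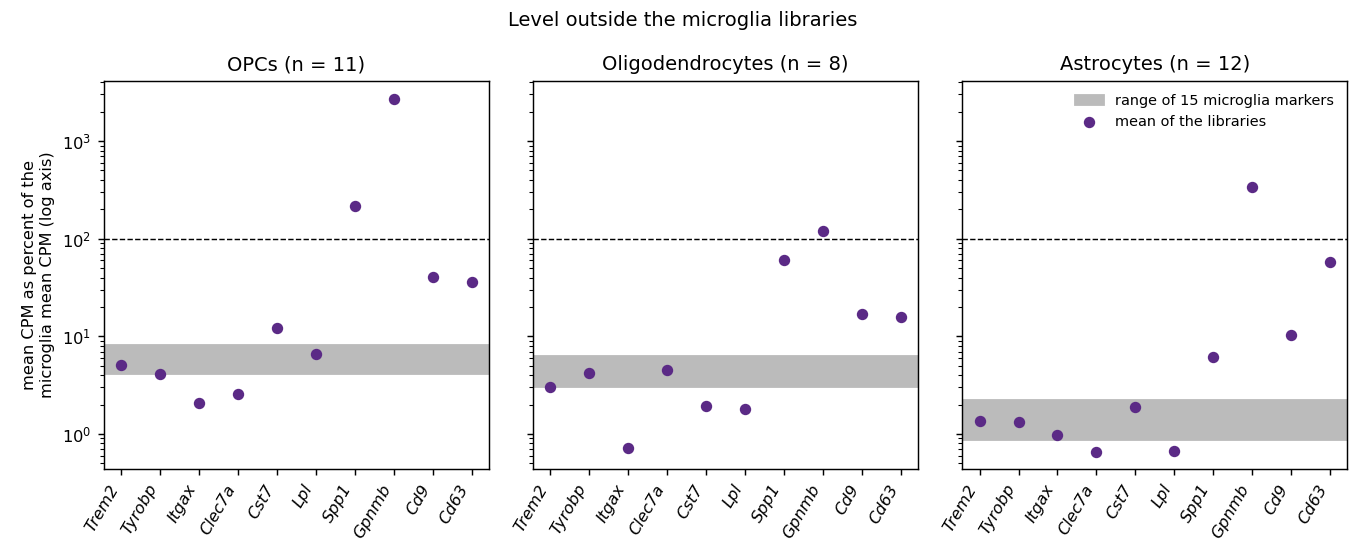
The mean CPM of each gene in OPC, oligodendrocyte and astrocyte libraries as a percent of its mean CPM in microglia libraries (log axis). The grey band is the range of the 15 microglia markers, 4.13% to 8.10% in OPCs, and the dashed line is 100%. Cd9, Cd63, Spp1 and Gpnmb lie above the band in each panel, and Gpnmb lies above the dashed line in all 3. These are means, and single oligodendrocyte libraries were at 0% for Spp1 and for Gpnmb.

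Across the libraries of 1 macroglial population, Tyrobp and Trem2 rose and fell with the summed microglia markers. Correlations were taken on log2(CPM + 1) against the marker sum, 40 in all with those in microglia given below, with permutation p-values adjusted over the 40. Tyrobp had Pearson's r of 0.968 in OPCs (n = 11, permutation p = 5.00e-05, adjusted p = 0.00120, Spearman's rho 0.964), 0.957 in oligodendrocytes (n = 8, exact permutation p = 2.48e-04, adjusted p = 0.00331, rho 0.881) and 0.935 in astrocytes (n = 12, permutation p = 6.00e-05, adjusted p = 0.00120, rho 0.811). Without the 2 libraries farthest from the median marker sum, which in each population were those of littermate pair 3, these were 0.879, 0.798 and 0.840. Trem2 had r of 0.809, 0.871 and 0.807 (adjusted permutation p = 0.0235, 0.0235 and 0.0132), which became 0.368, 0.538 and 0.525 without the 2. Cd63 in oligodendrocytes (r 0.882, adjusted exact permutation p = 0.0261, 0.799 without the 2) and Itgax in OPCs (r 0.782, adjusted permutation p = 0.0494, 0.006 without the 2) were the others past the threshold. Without the pair 3 libraries 0 of the 8 relations passed, the lowest adjusted permutation p being 0.0766 for Tyrobp in OPCs and in astrocytes. Fewer libraries remain in that setting, so a lost call does not by itself show that the relation rests on pair 3. Tyrobp kept r of 0.798 to 0.879 and Cd63 in oligodendrocytes 0.799, whereas Trem2 fell to 0.368 to 0.538 and Itgax in OPCs to 0.006. Among controls alone Tyrobp had r of 0.944 in OPCs and 0.960 in astrocytes, and among Rag2-/- astrocyte libraries 0.936. By rank, 1 gene in OPCs, 0 in oligodendrocytes and 2 in astrocytes passed. For Gpnmb r was 0.173 in OPCs, 0.211 in oligodendrocytes and -0.118 in astrocytes, and for Spp1 -0.021, -0.444 and -0.017, none of which passed.

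The libraries of littermate pair 3 stood at the top of this scale. In OPCs the control of pair 3 had 42.7 CPM of Trem2 and 111 of Tyrobp and the Rag2-/- mouse 30.6 and 128, where the other 9 libraries had 5.37 to 16.9 and 22.8 to 54.8. Both mice also had the highest Tyrobp among oligodendrocyte libraries (112 and 95.4 CPM) and among astrocyte libraries (37.8 and 22.9 CPM). In microglia libraries the same mice had 294 and 350 CPM of Trem2, the latter the highest value of the 12 and just above the next at 345. Their Tyrobp, at 1255 and 1285 CPM, was within the range of the others.

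**Figure D3:**
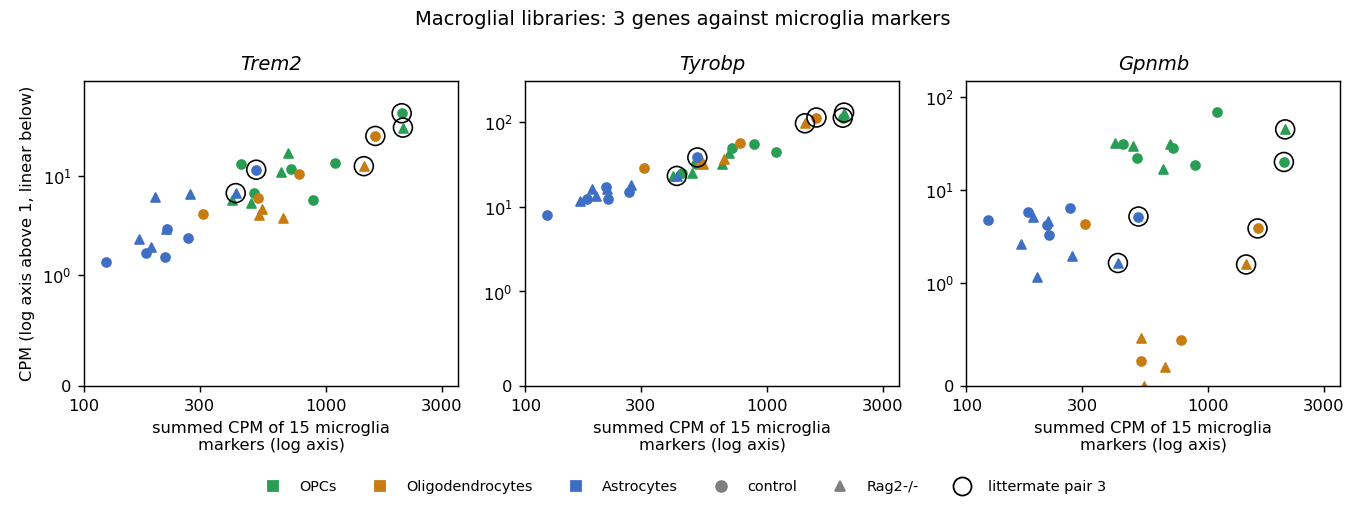
Trem2, Tyrobp and Gpnmb levels in CPM (log axis above 1, linear below) against the summed CPM of 15 microglia markers (log axis) in the 31 macroglial libraries, coloured by population, with circles for controls, triangles for Rag2-/- mice and rings around littermate pair 3. Tyrobp follows the marker sum in each population (r 0.968, 0.957 and 0.935), with the ringed OPC and oligodendrocyte libraries farthest right, while Gpnmb in OPCs lies between 17.04 and 69.2 CPM at any marker sum.

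Between genotypes, none of the 10 genes passed the test in microglia. Gpnmb was too sparse for the filter on low counts, and of the other 9, 0 were called by edgeR, where 0.00667% of 15003 genes (1 gene) were called. That count was 436 genes at an unadjusted p under 0.05, none of them a member, and 3 genes by DESeq2, again with no member. Trem2 had a median of 281 CPM in controls (223 to 345) and of 303 in Rag2-/- mice (257 to 350), a log2 difference of 0.11 (95% interval -0.13 to 0.35, edgeR adjusted p = 0.999). Tyrobp had a median of 1320 CPM in controls (1012 to 1443) and of 1295 in Rag2-/- mice (937 to 1421), a difference of -0.03 (-0.29 to 0.24). The groups overlapped almost fully for both. Cd9 (0.07, -0.12 to 0.25), Cd63 (-0.03, -0.26 to 0.20), Lpl (0.00, -0.30 to 0.31) and Itgax (0.16, -0.19 to 0.51) were bounded within about the same limits. Clec7a (-0.03, -0.50 to 0.43) and Cst7 (0.27, -0.26 to 0.81), with 70 to 252 counts a library, were bounded less tightly. For Spp1, at 0.363 to 4.31 CPM in controls and 2.09 to 5.72 in Rag2-/- mice, the difference was 0.60 and the interval ran from -0.42 to 1.61.

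Gpnmb was the member whose 2 groups lay farthest apart in microglia, at the limit of detection. The 6 control libraries held 2, 3, 0, 4, 7 and 6 counts (pairs 1 to 6) and their Rag2-/- littermates 25, 42, 7, 12, 26 and 3. The median CPM was 0.375 in controls, with a range of 0 to 0.871, and 1.64 in Rag2-/- mice, with a range of 0.318 to 4.52. The Rag2-/- mouse was higher in 5 of 6 pairs, and 4 of the 6 Rag2-/- libraries lay above every control, so the groups overlapped in part. How often other genes show such pair counts, here or in the cell types below, was not counted. The ratio of the mean CPM was 4.86. In the fit without the filter on low counts, where 0.0273% of 32912 genes were called, the log2 difference of Gpnmb was 2.21 (SE 0.66, 95% interval 0.91 to 3.50) and the edgeR adjusted p was 0.493. In astrocytes the direction was the opposite: Gpnmb had 3.28 to 6.48 CPM in controls and 1.15 to 5.19 in Rag2-/- mice, and was lower in the Rag2-/- mouse in 6 of 6 pairs. That log2 difference was -0.69 (95% interval -1.51 to 0.14, edgeR adjusted p = 0.9998). In OPCs, where Gpnmb was most abundant, it was 0.13 (-0.41 to 0.66), with the Rag2-/- mouse higher in 3 of 5 pairs, and -0.20 without the pair 3 libraries.

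**Figure D4:**
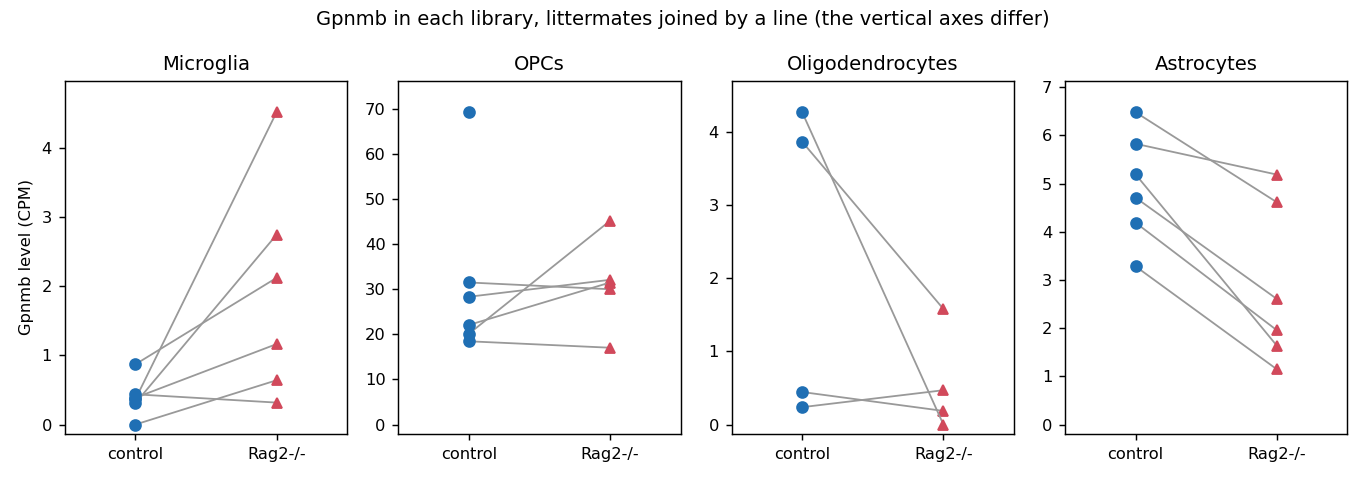
Gpnmb level in CPM in each library of controls (circles) and Rag2-/- mice (triangles), with littermates joined by a line and a separate vertical axis for each cell type. The Rag2-/- mouse is higher in 5 of 6 pairs in microglia, below 5 CPM throughout, and lower in 6 of 6 pairs in astrocytes. The OPC control of pair 5, without an OPC littermate library, stands at 69.2 CPM.

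The difference between cell types was tested directly, as the genotype effect in microglia minus the mean of that in the other 3 populations. In edgeR none of the 10 genes passed, where 0.00936% of 21368 genes (2 genes) were called. Gpnmb entered this fit through its counts in OPCs and astrocytes, since in microglia and oligodendrocytes it was too sparse for the filter. The microglia part of the contrast rests on 0 to 42 counts a library and the oligodendrocyte part on 0 to 4.26 CPM. Gpnmb ranked 15 among all genes by p, with a difference of 3.20 on the log2 scale (SE 0.77, 95% interval 1.65 to 4.75). Its adjusted p was 0.212 in edgeR with the filter on low counts, 2.08e-04 in edgeR without the filter (0.153% of all genes called) and 0.00654 in DESeq2, and over the 18 alternatives it ran from 2.08e-04 to 0.552, so the call rests on the filter and the tool. The difference itself stayed between 2.82 and 3.79 under these alternatives, which reuse the same few microglia counts and so add no separate evidence. The same contrast for Spp1 was 1.56 (95% interval -0.48 to 3.59, edgeR adjusted p = 0.973). Spp1 itself was too sparse for the filter in the fits within oligodendrocytes and within astrocytes.

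In the macroglial libraries 0 of the members past the filter were called between genotypes: 0 of 8 in OPCs (0.00592% of all genes called), 0 of 5 in oligodendrocytes (0%) and 0 of 5 in astrocytes (0.00679%). The tools differed in oligodendrocytes, where edgeR called 0 genes, 467 at an unadjusted p under 0.05, and DESeq2 called 205, none of them a member. Cd63 in astrocytes and Cd9 in OPCs were the most tightly bounded, with log2 differences of 0.07 (-0.16 to 0.29) and 0.06 (-0.17 to 0.29). Trem2, whose relation to the microglia signal in these libraries weakened without pair 3, was loosely bounded: -0.75 (-2.14 to 0.63) in oligodendrocytes and 0.57 (-0.50 to 1.63) in astrocytes. Lpl in oligodendrocytes was lower in the Rag2-/- mouse in 4 of 4 pairs (2.61, 5.65, 1.11 and 1.92 CPM in controls of pairs 1, 3, 5 and 6, against 0, 5.00, 0.372 and 0.0735), with a difference of -1.11 (-3.82 to 1.60, edgeR adjusted p = 0.998). The share of all genes that go the same way in every pair was not counted. Cst7 in OPCs, at 0 to 47 counts, had an interval from -2.35 to 1.63.

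**Figure D5:**
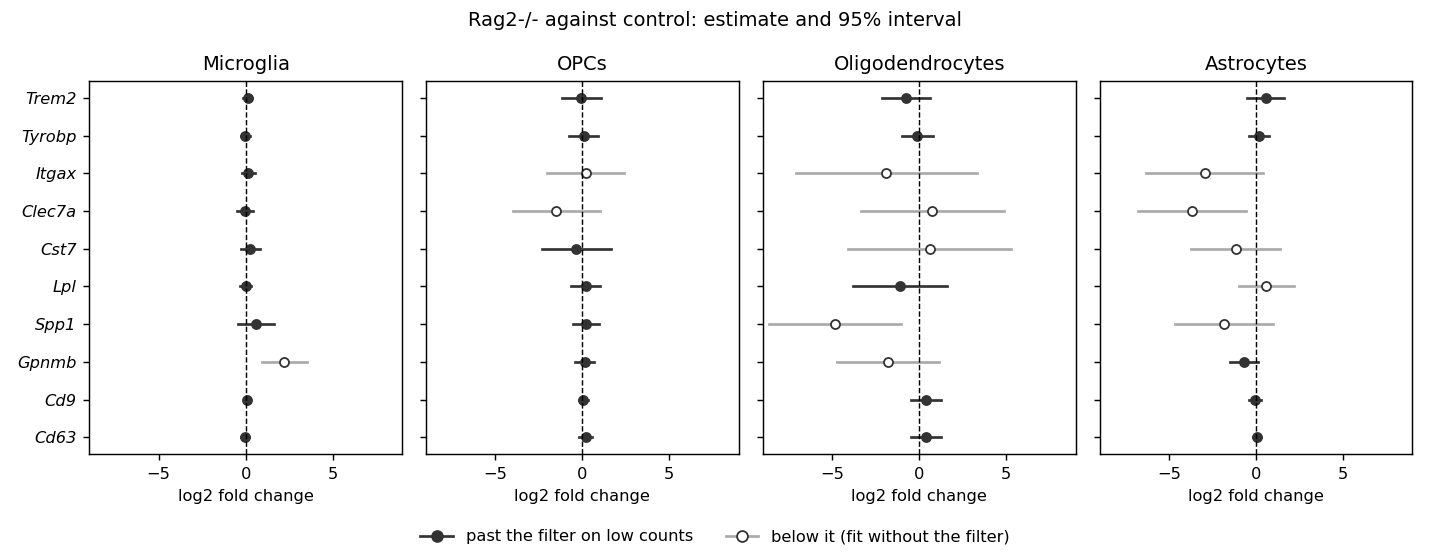
Log2 fold change of Rag2-/- against control libraries with its 95% interval for each gene (rows) in the 4 cell types (panels). Filled points passed the filter on low counts and open points, with grey lines, come from the fit without it. The intervals of the filled points all include 0. Open points of Gpnmb in microglia, Spp1 in oligodendrocytes and Clec7a in astrocytes exclude 0 before adjustment, with edgeR adjusted p = 0.493, 0.824 and 0.890. Clec7a was at 0 counts in all 6 Rag2-/- astrocyte libraries, so its fitted value gives no size.

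Between females and males, none of the 10 genes passed the threshold in the filtered fits. In microglia (5 female and 7 male libraries) 0 of 9 members were called against 0.0467% of all genes, in OPCs 0 of 8 against 0.0296%, in oligodendrocytes 0 of 5 against 0.0362% and in astrocytes 0 of 5 against 0.0407%. Clec7a had 11.4 to 20.8 CPM in microglia of females and 6.59 to 14.6 in those of males, a log2 difference of 0.52 (95% interval 0.05 to 0.98, edgeR adjusted p = 0.9998). Itgax went the same way at 0.34 (-0.01 to 0.69). In the other populations the members with the smallest p-values were Gpnmb in OPCs (0.62 higher in females), Cd9 in oligodendrocytes (-1.12) and Tyrobp in astrocytes (-0.68), with edgeR adjusted p of 0.999, 0.529 and 0.716. Tyrobp in OPCs (-0.85, edgeR adjusted p = 0.999) was called in edgeR without the filter on low counts (adjusted p = 0.00318, 0.213% of all genes called). The 7 male OPC libraries include both of pair 3, and without that pair the difference was -0.12 (edgeR adjusted p = 0.999). Genotype and sex were close to balanced, with 3 of 6 Rag2-/- and 2 of 6 control microglia libraries from females.

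Other genes of the programme were read from lists. Of 30 further disease-associated genes, 28 were tested between cell types. Of all tested genes, 31.4%, 33.1% and 33.8% were higher in microglia than in OPCs, oligodendrocytes and astrocytes, and 40.3%, 36.6% and 38.2% lower. Of the 28, 22, 24 and 22 were higher in these comparisons, and 5, 4 and 6 were lower. Their most abundant members per kilobase in microglia were the chemokines Ccl3 (2945 CPM per kilobase) and Ccl4 (1252) and the surface protein Cd83 (1100), and the least abundant Ch25h (0.733), the cholesterol 25-hydroxylase, and Atp6v0d2 (0.080), a subunit of the vacuolar proton pump. The tissue was digested with warm papain and triturated before panning, and the part of these steps in such levels was not tested. In microglia 0 of the 28 tested by genotype were called, where 0.00667% of all tested genes were, with a median log2 difference of -0.00 against -0.01 over all genes. The smallest p-values were those of Atp6v0d2 (counted only in the fit without the filter), the cathepsin gene Ctsl (-0.36) and the lysozyme gene Lyz2 (-0.20), with edgeR adjusted p of 0.925, 0.999 and 0.999.

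Genes of the signalling pathway around TREM2 and TYROBP were highest in microglia. Of 15, all 15 were higher in microglia than in OPCs and astrocytes and 14 than in oligodendrocytes, the exception being the sheddase gene Adam10 (0.06, edgeR adjusted p = 0.678). Of all tested genes, 31.4%, 33.8% and 33.1% were higher in these comparisons. Ptpn6, Cd33 and Inpp5d, which encode inhibitory members of the pathway, led in microglia at 65.0, 62.5 and 54.7 CPM per kilobase. Mitf, which encodes a factor binding CATGTG, was the lowest at 2.54, behind the adaptor gene Card9 at 5.31. By genotype 0 of 15 were called in microglia, where 0.00667% of all tested genes were. The smallest p-values were those of the kinase gene Syk (-0.20), the adaptor gene Hcst (0.46) and Bcl10 (-0.20), each with an edgeR adjusted p of 0.999.

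Binding partners and substrates of the 10 proteins were mixed. Over all tested genes, 31.4% to 33.8% were higher in microglia than in another population and 36.6% to 40.3% lower. Of the 18 genes here, 15 were tested between cell types, of which 9, 12 and 10 were higher in microglia and 2, 1 and 3 were lower. Cd81, a tetraspanin partner of Cd9, was the most abundant at 345 CPM per kilobase, followed by Lgmn, a lysosomal protease gene (99.3), and Itgb2 (85.4), the β subunit that pairs with the product of Itgax. Gpihbp1 and Apoc2, which encode the anchor and the cofactor of lipoprotein lipase, were at 0 counts in every one of the 12 microglia libraries. By genotype in microglia 0 of 15 were called, where 0.00667% of all tested genes were. The smallest p-values were those of Itga9, Lmf1 and Cd81 (log2 differences 0.18, 0.26 and 0.14, edgeR adjusted p = 0.999 for each).

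The 16 genes of resting microglia set the scale. All 16 were higher in microglia than in each other population, where 31.4% to 33.8% of all tested genes were. They were picked as microglia genes, so that count follows from the choice. By genotype 0 of the 16 were called, against 0.00667% of all tested genes. Cst3 (7851 CPM per kilobase), Csf1r (611) and Fcrls (323) led, and Gpr34 (39.1) and Sall1 (31.7) were lowest. All 16 thus stood above Lpl, Cst7, Clec7a, Itgax, Spp1 and Gpnmb per kilobase. The smallest p by genotype was that of the fractalkine receptor gene Cx3cr1 (0.21 higher in Rag2-/- mice on the log2 scale), and Gpr34 differed by -0.24, with an edgeR adjusted p of 0.999 for each.

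Within microglia, other myeloid cells were looked for beside the members. A list of 12 macrophage genes of the brain borders, led by Mrc1, summed to 477 to 1088 CPM in controls and 512 to 999 in Rag2-/- libraries, with 11 of the 12 above 0 in every library. Neutrophil markers summed to 12.95 to 37.3 CPM in controls and 7.69 to 113 in Rag2-/- libraries, the highest being the library of the Rag2-/- mouse of pair 5. Genes of dendritic cells, which also carry Itgax, summed to 136 to 200 CPM in controls and 138 to 189 in Rag2-/- libraries. Zbtb46, Ccr7 and Cd209a, with means of 93.6, 44.4 and 21.9 CPM, made up most of that sum. Xcr1, Itgae, Flt3, Btla and Clec9a had means of only 5.21, 2.58, 2.10, 0.765 and 0.168 CPM. The part of dendritic cells in any member's level was not tested. Over the 12 microglia libraries no member correlated with the border macrophage sum past the threshold, the highest r being 0.527 for Clec7a (rho 0.399, permutation p = 0.0798, adjusted p = 0.228, r 0.122 without the 2 farthest libraries) and the lowest -0.360 for Tyrobp. Without the control library of pair 6 the relation of Clec7a passed (r 0.763, adjusted permutation p = 0.0236).

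The genes most like each member across all 43 libraries, out of 19209, were named by Pearson's r of log2(CPM + 1). All points share the contrast between cell types, and r is given as a description. For Trem2 they were Selplg (0.987) and C1qb (0.986), and for Tyrobp Csf1r (0.995) and C1qb (0.994). Itgax was most like Batf3 (0.984) and Mefv (0.982), Cst7 like Tlr1 (0.961) and Srgn (0.960), and Lpl like Mef2a (0.979) and Tnfaip3 (0.978). Clec7a was most like ENSMUSG00000110235, a gene without a symbol here (0.978), and the pseudogene Sp110-ps2 (0.977). Cd9 was most like Dab2 (0.980) and the pseudogene Gm20689 (0.975), and Cd63 like its pseudogene Cd63-ps (0.985) and Slc3a2 (0.977). The closest to Spp1 were Cp (0.854) and the fibroblast gene Dcn (0.811), and the closest to Gpnmb were Ptprs (0.911) and Arl4a (0.905). Trem2 and Tyrobp had r of 0.981 with each other over the 43 libraries and 0.062 over the 12 microglia libraries alone.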

How the data were processed

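The data are 43 RNA-seq libraries of immunopanned cortical glia from 12 mice. The deposited files hold raw counts of read pairs per gene. The authors amplified RNA with the Ovation V2 kit, sequenced paired 50-base reads, aligned them with STAR 2.7.8a to GRCm39 (Ensembl release 104) and counted with HTSeq 0.13.5. The counting mode and strand setting are not given in the sources used here, so reads of genes that overlap on either strand may not be told apart. The files also list read pairs assigned to no gene (33.5% to 52.0% of a library), which were left out of totals and tests. Mitochondrially encoded genes took 6.75% to 60.1% of gene counts. No replicate pair agreed within sampling noise.

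CPM is a gene's counts scaled to 1000000 gene-assigned counts, and levels per kilobase used the merged exons of GENCODE M39. Groups came from the labels. The main test was edgeR 4.0.16's quasi-likelihood test in R 4.3.3 (trimmed-mean scaling, genes kept by a minimum count of 10 and total of 15, Benjamini-Hochberg threshold 0.05), fitted within a cell type with sex and genotype as terms, or over all libraries for comparisons of cell types and for the genotype effect in microglia against the others. Alternatives were DESeq2 1.42.0, limma 3.58.1 voom with quality weights, other scaling (size factors, or library totals alone between cell types), no filter, no mitochondrial genes, no sex term, heterozygous controls alone, control libraries alone, a replicate block and leaving out each library, or each mouse in fits over all libraries. The scripts were tested on simulated counts. The labels mark littermate pairs, and deviations from group means correlated more between littermates (mean r 0.0988, 0.112, 0.120 and 0.156 in microglia, OPCs, oligodendrocytes and astrocytes) than between other mice (-0.0201, -0.0221, -0.0398 and -0.0301). Correlations with marker sums used log2(CPM + 1) and permutation (100000 resamples, or exact for 8 libraries). Promoters and copied 50-base stretches were read from GRCm39.

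The members and gene lists were chosen with earlier results of these data known. Beside the members, the text names the genes of each list with the 3 smallest p-values by genotype in microglia, the 3 highest and 2 lowest levels, and the 2 genes most like each member. The promoter of 1 member and the value of 1 gene that this rule names are not reported here.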

Additional observations from a re-analysis of the deposited data

Results flagged for a closer look

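Each member's level was tested in groups of 4 to 6 libraries for a single library far from the rest. In 16 of 79 such groups (20.3%) the highest library stood apart. Chance gives about 1 in 20 for independent groups. These groups share libraries, and members vary together, so the 20.3% cannot be set against that rate. Of the 16 values, 12 were from littermate pair 3, with several members in the same library. Trem2 stood apart in pair 3 at 42.7 CPM in control OPCs (others up to 13.4), 11.5 in control astrocytes (up to 2.92) and 12.5 in Rag2-/- oligodendrocytes (up to 4.63). Tyrobp did so at 111 CPM in control OPCs, 128 in Rag2-/- OPCs, 37.8 in control astrocytes and 95.4 in Rag2-/- oligodendrocytes. The pair also held the values of Cst7 at 1.27 CPM in control astrocytes and 0.964 in Rag2-/- oligodendrocytes, of Itgax at 2.07 in Rag2-/- OPCs and 2.01 in control astrocytes, and of Lpl at 5.00 in Rag2-/- oligodendrocytes. The summed microglia markers were highest in the same libraries (2049 and 2075 CPM in OPCs, 1595 and 1430 in oligodendrocytes, 514 and 423 in astrocytes).

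The other 4 values were of Itgax, Spp1 and Gpnmb. Itgax in the Rag2-/- mouse of pair 6 was at 0.0931 CPM in astrocytes and 0.588 in oligodendrocytes, where every other library of the group was at 0. That astrocyte value lies below the 0.279 CPM that 3 counts give in its library. Spp1 was at 3.07 CPM in the oligodendrocytes of the Rag2-/- mouse of pair 5 (others up to 0.294). Gpnmb was at 69.2 CPM in the OPCs of the control of pair 5 (others up to 31.5).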

How the results depend on the processing

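The deposited counts were refitted under the alternatives named in the methods. The options without the pair 3 libraries and with library totals alone were chosen after the data were seen. Counts of members called by genotype stayed at 0 under every alternative run in the 4 cell types. The cause of each change below was not tested.

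Without the filter on low counts, genes called by genotype became 9 in microglia, 90 in OPCs, 14 in oligodendrocytes and 30 in astrocytes. Genes called by sex became 25, 72, 99 and 118, with 1 member called in OPCs. The contrast of genotype effects called 60 genes and 1 member, and 5 members were called between OPCs and oligodendrocytes. DESeq2 called 3, 5 and 205 genes by genotype in microglia, OPCs and oligodendrocytes, 11, 13, 432 and 19 by sex, and 46 genes with 1 member in the contrast of genotype effects. Voom with quality weights called 2 genes by sex in oligodendrocytes. Without mitochondrial genes 5 of 8 correlations with microglia markers passed. Without pair 3 none (0) did, 6 members were called between OPCs and oligodendrocytes, and 1 gene each by sex in oligodendrocytes and in the contrast of genotype effects.

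With library totals in place of trimmed-mean scaling, 13449 genes and 6 members were called between OPCs and oligodendrocytes, and Spp1 between microglia and oligodendrocytes was 0.92, not past the threshold. In that comparison of OPCs with oligodendrocytes, Tyrobp and Clec7a lost and Cst7, Lpl and Cd9 gained their call, as given above.

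With the replicate block, genes called by sex were 1 in oligodendrocytes and 19 in astrocytes. Only pair 6 differs in sex, so sex in that fit rests on this pair. Of 98 values refitted with a block, 3 changed call (Clec7a, Cst7 and Lpl between OPCs and oligodendrocytes, given above) and 6 changed sign, none of which passed in either fit: Cd63 by genotype in microglia (0.00135), Itgax by sex in microglia (-0.45), Tyrobp by sex in OPCs (0.99) and astrocytes (0.83), Cd9 by sex in oligodendrocytes (0.61), and Spp1 between microglia and oligodendrocytes (0.67).

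Other sign changes were of values near 0: Clec7a in microglia without the sex term (0.031), Lpl in microglia with heterozygous controls alone (-0.12), and Gpnmb in OPCs with heterozygous controls alone (-0.022) and without pair 3 (-0.20). Libraries were also left out singly, and in fits over all libraries those of a mouse were left out together. Log2 differences by genotype in microglia then ran over -0.10 to 0.029 for Cd63, -0.15 to 0.10 for Clec7a, -0.075 to 0.11 for Lpl and -0.10 to 0.047 for Tyrobp, in OPCs over -1.63 to 0.093 for Cst7 and -0.15 to 0.36 for Gpnmb, and between microglia and oligodendrocytes over -0.48 to 0.72 for Spp1. Counts ran from 1 to 2 genes by genotype in microglia, 1 to 3 in the contrast of genotype effects, 3 to 5 by sex in oligodendrocytes, 2 to 5 members between OPCs and oligodendrocytes, 5 to 9 correlations with microglia markers and 0 to 1 with border macrophage markers.

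Depth limits Gpnmb and Spp1 in microglia, Itgax, Clec7a and Cst7 outside microglia, and Spp1 in oligodendrocytes and astrocytes, which held few or no counts a library. Groups of 4 to 6 mice leave intervals of the genotype effect wider than 1 on the log2 scale for these genes. Intervals and floors cover counting error or the spread of these libraries only.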
